A study of Heterocephalus glaber with 2 samples.

Results

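Cytosolic ribosomal protein genes were described in full-thickness dorsal skin of the naked mole-rat (Heterocephalus glaber), a long-lived subterranean rodent, at 19 years of age (old) and at 4 years of age (young). Genes were taken by name: RPL or RPS with a number and an optional A, X, Y or L, or one of the stalk and RPSA names, with the RPS6K kinases left out and the highest locus kept for each symbol. The rule took 56 genes of the 24514 loci in the tables, 33 of the large and 23 of the small ribosomal subunit. Total RNA was depleted of ribosomal RNA and sequenced from both ages, and the labels give no treatment and no genotype, so age is the stated difference between the groups. Each age has 2 tables of FPKM values (fragments scaled to locus length and library size), numbered 1 and 2, and each table was taken as 1 library: old 1 and old 2 against young 1 and young 2. The labels do not say whether a table is a separate animal, so p-values rest on how far these tables spread, a spread that may be technical, and n is 2 per age throughout.

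The ribosome is built from ribosomal RNA and a set of ribosomal proteins, most of them present in a single copy and each belonging to either the large or the small subunit. In vertebrates their mRNAs begin with a terminal oligopyrimidine (TOP) tract, through which mTORC1 and LARP1 adjust translation of the whole family at once. The proteins are short, their mRNAs are abundant in skin as in other tissues, and many of the genes carry small nucleolar RNAs in their introns. A few have a paralog of restricted expression, among them RPL3L, known from striated muscle, and RPL10L, known from testis. No transcript sequence was used here.

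The libraries fell apart by table number before any gene was compared. Loci of small structural RNA made up 52.0% of the summed FPKM in old 1 and 0.393% in old 2, against 47.6% in young 1 and 0.173% in young 2. Loci of the mitochondrial genome made up 4.06% and 29.6% in the old libraries, against 5.77% and 23.2% in the young ones. FPKM is a share of the library, so every level below moves with these fractions. The summed FPKM lay between 401039 and 445064 per library. Keratinocyte markers were present in all libraries (KRT10 had 1323 and 3693 FPKM in old skin, against 1285 and 3823 FPKM in young skin), and so were skeletal muscle markers (ACTA1 had 1832 and 1332 FPKM in old skin, against 1349 and 871 FPKM in young skin). In such bulk tissue fewer cells of a type and less RNA per cell cannot be told apart. Reads behind an FPKM value are unknown, so no counting error is given.

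Of the 56 genes, 54 reached a mean of 1 FPKM over the 4 libraries and were tested, 32 of the large and 22 of the small subunit. Among those not tested, RPL10L lay at the tables' floor of 0.0001 FPKM in all 4 libraries. RPS3A, a small subunit protein, had 0.0434 and 0.0421 FPKM in old skin, against 0.132 and 0.404 FPKM in young skin. The other locus with the RPS3A symbol lay at the floor in all 4 libraries. A locus without that symbol, described in the RefSeq gene table as S3a-like, had 8.13 and 19.0 FPKM in old skin, against 6.99 and 28.4 FPKM in young skin, so which locus holds the gene in use is not settled here. Ribosomal protein genes have many processed copies in mammalian genomes, and how reads shared with such copies were counted is not stated.

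As a family the 54 genes made up 2.79% and 10.2% of the summed FPKM in old 1 and old 2, against 2.08% and 12.9% in young 1 and young 2. Their summed level was 12417 FPKM in old 1, 41543 FPKM in old 2, 8344 FPKM in young 1 and 54738 FPKM in young 2. The old libraries thus lay between the young ones. With the small structural RNA and mitochondrial loci taken out of the total, the family's share was 6.35% and 14.6% in old skin, against 4.47% and 16.8% in young skin.

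**Figure D1:**
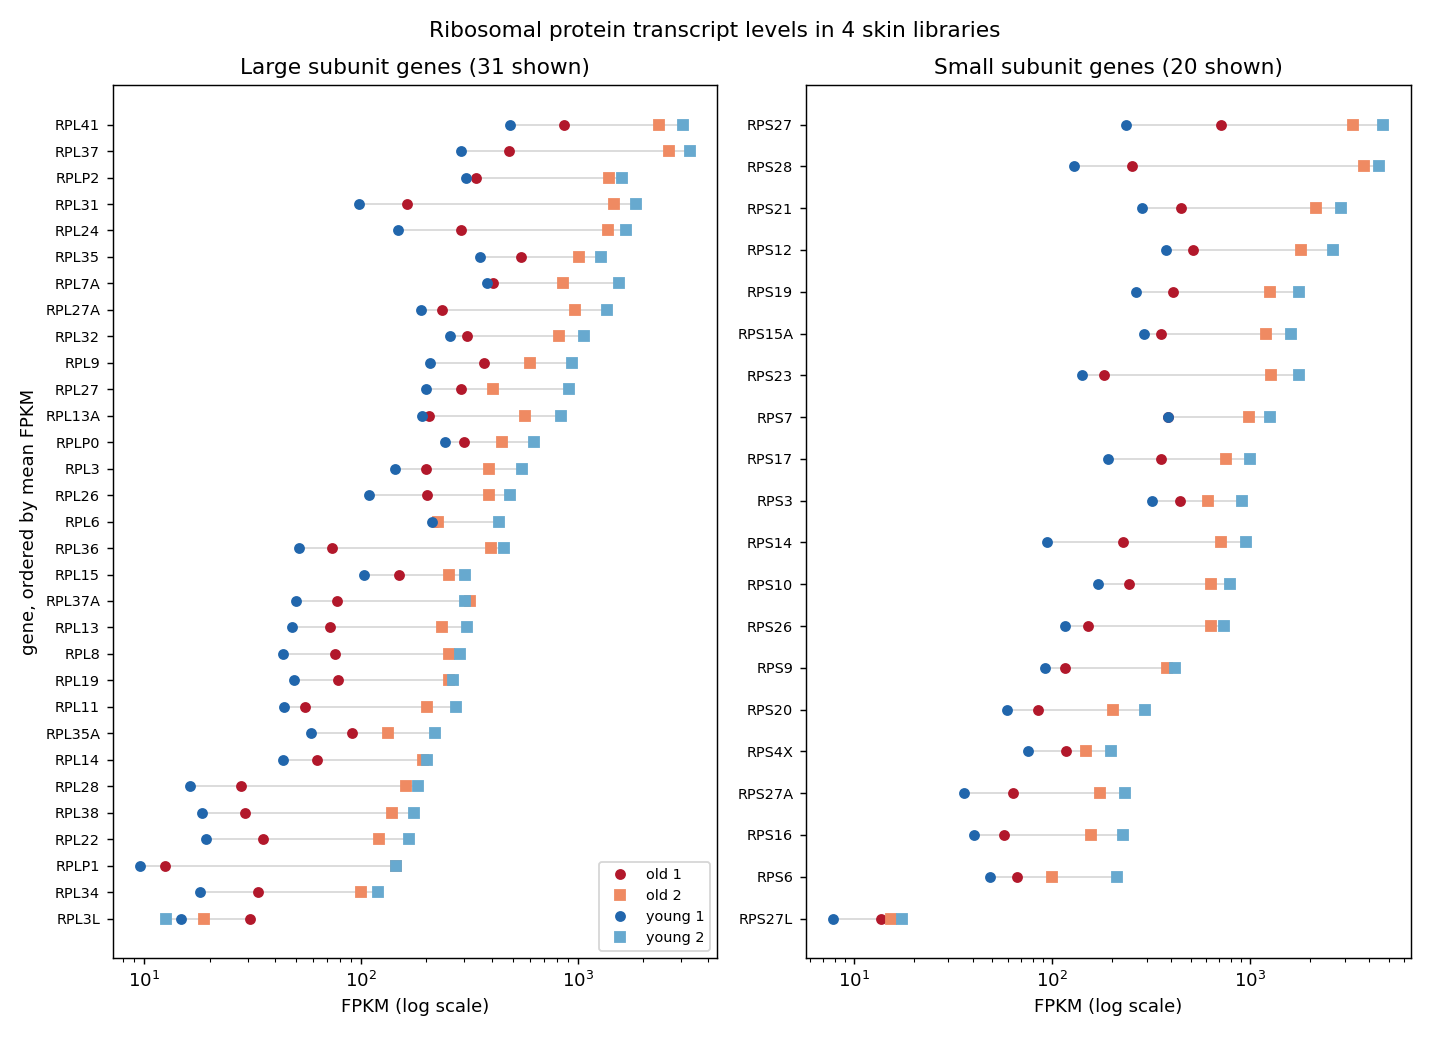
FPKM on a log scale of tested ribosomal protein genes in the 4 libraries, ordered by mean, for large subunit genes (left) and small subunit genes (right). Circles are the libraries numbered 1 and squares those numbered 2, and the squares lie to the right of the circles for all genes shown except RPL3L.

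Among large subunit genes the highest mean belonged to RPL41, which encodes a very short protein. It had 862 and 2357 FPKM in old skin, against 485 and 3052 FPKM in young skin. RPL37 had 481 and 2633 FPKM in old skin, against 288 and 3287 FPKM in young skin. RPLP2, one of the acidic stalk proteins that recruit elongation factors, had 338 and 1399.7 FPKM in old skin, against 306 and 1602 FPKM in young skin. In each of these genes both old libraries lay between young 1 and young 2. The lowest large subunit genes above the floor were RPL34, with 33.3 and 100.4 FPKM in old skin, against 18.0 and 119.6 FPKM in young skin, and RPL3L, described further on.

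Small subunit genes were led by RPS27, a zinc-finger protein of the small subunit, with 716 and 3313 FPKM in old skin, against 238 and 4687 FPKM in young skin. RPS28 had 253 and 3752 FPKM in old skin, against 129 and 4463 FPKM in young skin. RPS21 had 447 and 2142 FPKM in old skin, against 284 and 2867 FPKM in young skin. Here too the old values lay inside the young range. At the low end, RPS6, the substrate of the S6 kinases, had 66.4 and 100.4 FPKM in old skin, against 48.6 and 212 FPKM in young skin. The highest and lowest genes in a library, without the -like paralogs, differed by 69.0-fold in old 1 and 37.4-fold in old 2, against 50.6-fold in young 1 and 39.2-fold in young 2. FPKM is scaled by locus length, and the lengths used are not in the tables, so a locus assembled too long would read low.

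Across the age comparison no ribosomal protein gene changed in limma at an adjusted p of 0.05 on log2(FPKM + 1). The count was 0 of 54, beside 0.0% of the 12753 loci tested, and the lowest adjusted p of the family was 1.00. At an unadjusted p under 0.05 limma also gave 0 of the 54 genes, and over all loci 25 higher and 53 lower in old skin. With the number as a further term limma again called 0 of the 54, beside 0.0235% of all loci. The fit by age alone counts the difference between the numbers as spread. For RPS28 its SE on the log2 scale was 2.24, against 0.60 with the number as a term. For RPL3L it was 0.53, against 0.31. The lack of calls thus does not show that the ages were alike. The ages did not overlap for 1 of the 54 genes, RPL3L, while 13.8% of all loci tested did not overlap.

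Within each table number, where 1 old library stands against 1 young library with no replicate and no test, nearly all genes of the family differed the same way, and the way was opposite in the numbers. The ratio of old 1 to young 1 was above 1 for 53 of 54 genes, against 58.7% of all loci, and its median on the log2 scale was 0.55, against 0.07 over all loci. The ratio of old 2 to young 2 was below 1 for 51 of 54 genes, against 54.6% of all loci, with a median log2 ratio of -0.37, against -0.06 over all loci. Both held together for 50 of the 54 genes, against 31.5% of all loci. For all 54 genes the ratio was larger in number 1 than in number 2, against 59.2% of all loci. Differences of at least 1.5-fold were seen for 26 genes in number 1, all higher in old 1 (8.94% of all loci were that much higher and 5.4% that much lower). In number 2 there were 7, all lower in old 2 (15.6% of all loci were that much lower and 11.3% that much higher). The share lower by this much was thus near that of all loci, and no gene of the family was higher by this much. After rescaling without small structural RNA and mitochondrial loci, which moves the median of all loci in number 2 by 0.13 on the log2 scale, the family's median was 0.49 in number 1 and -0.18 in number 2, and 40 of 54 genes had the opposite signs. The medians of all loci were then 0.01 and 0.07, and the share of all loci with these signs is not given for this scaling.

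**Figure D2:**
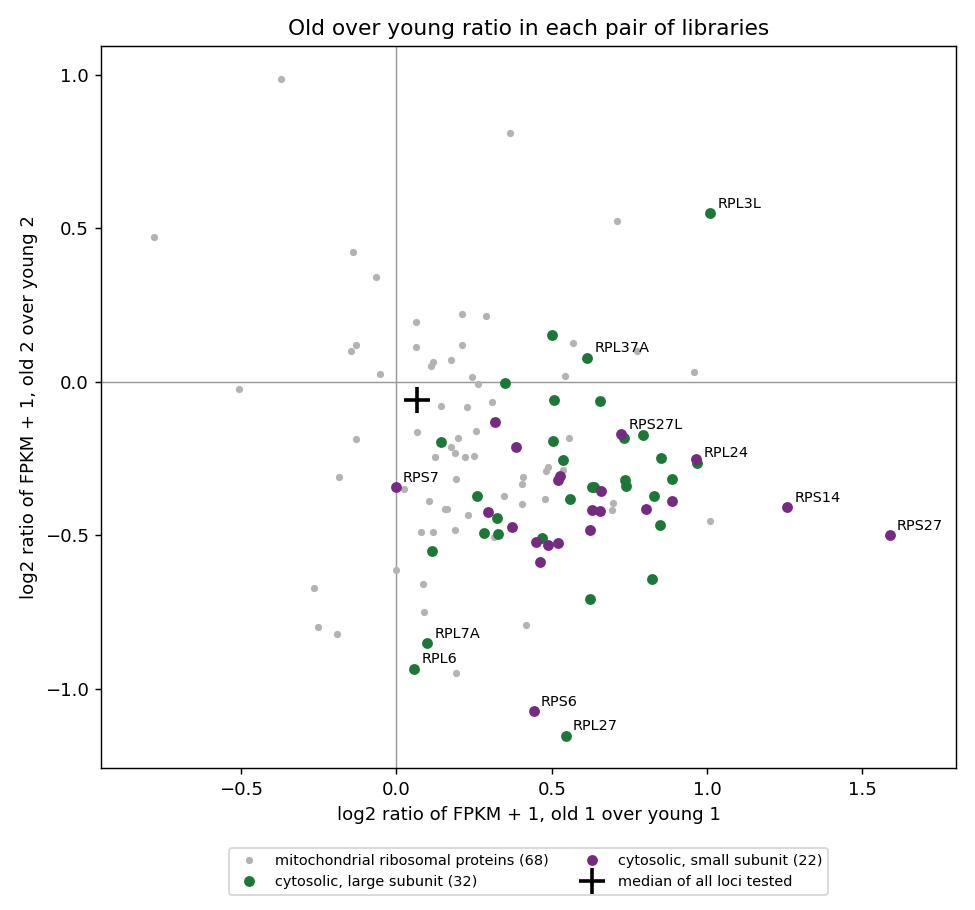
Log2 ratio of FPKM + 1 of old 1 over young 1 (horizontal) and of old 2 over young 2 (vertical) for the 54 cytosolic ribosomal protein genes by subunit, with the 68 mitochondrial ribosomal protein genes in grey and the median of all loci tested as a cross. Most cytosolic genes, 50 of 54, lie at the lower right, RPS27 and RPS14 lie farthest to the right, and RPL27 and RPS6 lie lowest.

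Of the cell type markers, those of adipocytes showed these opposite signs for 4 of 5 genes tested, beside 31.5% of all loci. For keratinocytes it was 3 of 6. The count was 2 of 6 for lymphocytes and plasma cells, 1 of 7 for fibroblasts, 1 of 7 for macrophages and mast cells, 1 of 5 for melanocytes, 0 of 5 for skeletal muscle and 0 of 6 for endothelium. All 5 adipocyte markers tested were higher in old 1 than in young 1, beside 58.7% of all loci. In number 2, 4 of the 5 were lower in old skin, beside 54.6% of all loci. The summed level of the 5 was 742 and 149.7 FPKM in old skin, against 453 and 256 FPKM in young skin. Unlike the ribosomal protein sum, the adipocyte sum was lower in the libraries numbered 2 than in those numbered 1. The fibroblast sum was below the young libraries in both old ones, at 943 and 321 FPKM in old skin, against 6341 and 9013 FPKM in young skin. A sum follows its most abundant genes, and the median log2 ratio of these markers was -0.15 in number 1 and -2.16 in number 2. In number 1, 3 of 7 were at least 1.5-fold lower in old skin (5.4% of all loci) and 1 was that much higher (8.94%). In number 2, 6 of 7 were that much lower (15.6%) and 0 higher (11.3%). The part of these cell types in the ribosomal protein levels was not tested.

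Genes of both subunits showed these signs, and the difference between the subunits' ratios was not tested. In number 1, 32 of 32 large subunit genes and 21 of 22 small subunit genes were higher in old skin, with median log2 ratios of 0.59 and 0.52. In number 2, 29 of 32 large subunit genes and 22 of 22 small subunit genes were lower in old skin, with median log2 ratios of -0.34 and -0.42. All 3 genes that were higher in old 2 belonged to the large subunit. On the level itself, the median large subunit gene had 176 and 388 FPKM in old skin, against 106 and 469 FPKM in young skin. The median small subunit gene had 236 and 686 FPKM in old skin, against 135 and 933 FPKM in young skin.

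The median log2 level of the large subunit minus that of the small subunit was -0.42 in old 1 and -0.82 in old 2, against -0.35 in young 1 and -0.99 in young 2. Small subunit genes therefore had the higher median in every library. The gap differed between old and young skin by 0.05, with an exact two-sided permutation p of 1.00, where 2 against 2 libraries allow no p below 0.333. Between the numbers it differed by -0.52, wider in both libraries numbered 2, with an exact permutation p of 0.333, the smallest this design can give.

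Summed over the 54 genes of the naming rule, the order of the subunits depended on a pair of genes. The summed large subunit level over the summed small subunit level was 1.10 and 0.884 in old skin, against 1.19 and 0.871 in young skin. RPS27 and RPS28 alone made up 7.80% and 17% of the family's level in old skin, against 4.40% and 16.7% in young skin. Without this pair, chosen after the values were seen, the ratio of sums was 1.32 and 1.30 in old skin, against 1.31 and 1.27 in young skin. The narrow range holds for these genes alone. The sums leave out 21 ribosomal protein loci that the naming rule does not take. Among those is RPS29, with 1570.4 and 4998 FPKM in old skin, against 825 and 7338 FPKM in young skin. A ratio with these loci included is not given.

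Against the family's common shift, a few genes stood out in number 1. RPS27 was 3.01-fold higher in old 1 than in young 1 and 0.707-fold in old 2 relative to young 2. Its log2 ratio of 1.59 in number 1 was the one that lay more than 1 above the family's median. RPS14, a small subunit protein whose loss is known from a human marrow disorder with anaemia, had 227 and 717 FPKM in old skin, against 94.3 and 951 FPKM in young skin, a fold of 2.41 in number 1. RPL24, a large subunit protein at the interface of the subunits, had 290.3 and 1384 FPKM in old skin, against 148 and 1662 FPKM in young skin, a fold of 1.96 in number 1. At the other end, RPS7 had 385 and 990.0 FPKM in old skin, against 386 and 1257 FPKM in young skin. It was level between the ages in number 1 and the lone gene with a ratio below 1 in both numbers.

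Other genes stood out by a larger deficit in old 2. RPL27 had 291 and 408 FPKM in old skin, against 199 and 909 FPKM in young skin, so that old 2 held 0.449 of the young 2 level. RPS6 in old 2 was at 0.473 of young 2. RPL6 had 221 and 227 FPKM in old skin, against 212 and 435 FPKM in young skin. Its other 3 libraries were alike and young 2 stood above them. RPL7A had 407 and 856 FPKM in old skin, against 379 and 1546 FPKM in young skin, with folds of 1.07 in number 1 and 0.554 in number 2. RPL13A, a protein also known outside the ribosome in translational silencing, is named for its small ratio in number 1 and not for its deficit in old 2. It had 206 and 569 FPKM in old skin, against 190.5 and 833 FPKM in young skin, with folds of 1.08 in number 1 and 0.683 in number 2.

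In contrast, 3 large subunit genes were not lower in old 2. Among them, RPL37A had 77.3 and 319 FPKM in old skin, against 50.2 and 302 FPKM in young skin. RPL3L was another. RPLP1, the partner of RPLP2 in the stalk, was not one of these 3 but was nearly equal in the libraries numbered 2, at a fold of 0.998. It had 12.5 and 145 FPKM in old skin, against 9.58 and 145 FPKM in young skin. Its low level in number 1, far below that of RPLP2, held in both ages. The size of a gene's ratio in number 1 said little about its ratio in number 2, with a Spearman rho of 0.25 over the 54 genes, given as a description of genes that share libraries.

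RPL3L was the exception of the family in several respects. It had 30.7 and 18.9 FPKM in old skin, against 14.8 and 12.6 FPKM in young skin. Both old libraries lay above both young ones, by 2.08-fold in number 1 and 1.5-fold in number 2, but limma did not call the difference (log2 difference 0.78 ± 0.53, SE, adjusted p = 1.00). It was also the one tested gene lower in number 2 than in number 1 at both ages. Its ubiquitous counterpart RPL3 had 199 and 388 FPKM in old skin, against 144 and 552 FPKM in young skin. RPL3L was thus at 15.4% and 4.86% of RPL3 in old skin, against 10.3% and 2.28% in young skin.

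Markers of skeletal muscle, the tissue from which RPL3L is known, stand beside these values. DES, the muscle intermediate filament desmin, had 303 and 416 FPKM in old skin, against 146 and 182 FPKM in young skin. It was named with its values in view and had the largest ratio of the 5 markers in both numbers. The median log2 ratio of the 5 was 0.44 in number 1 and 0.50 in number 2. Of the 5 muscle markers tested, 4 were higher in old skin in both numbers, beside 3410 of the 12753 loci tested. CKM was lower in old skin in both numbers, with log2 ratios of -0.16 and -0.26. The sum of the 5 markers was 3301 and 3266 FPKM in old skin, against 2528 and 2484 FPKM in young skin. The part of muscle content in the RPL3L level was not tested.

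**Figure D3:**
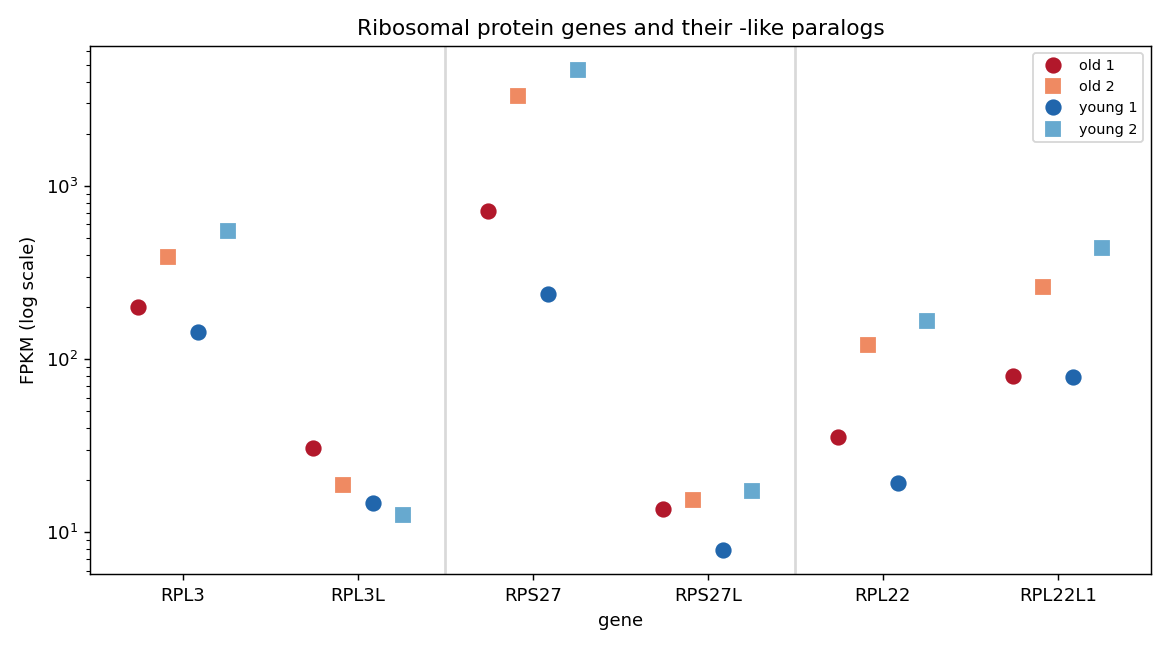
FPKM on a log scale of RPL3, RPS27 and RPL22 and their paralogs RPL3L, RPS27L and RPL22L1 in each library. RPL3L is the one gene of the 6 in which both old libraries lie above both young ones, and RPL22L1 lies above RPL22 in all 4 libraries.

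RPS27L, a paralog of RPS27 that p53 induces in human cells, had 13.7 and 15.4 FPKM in old skin, against 7.88 and 17.4 FPKM in young skin. It followed the direction of the family in both numbers, with folds of 1.73 and 0.882. Relative to RPS27 it stood at 1.91% and 0.464% in old skin, against 3.32% and 0.372% in young skin. The pair of RPL22 and RPL22L1 falls partly outside the naming rule, and that of RPL7 and RPL7L1 wholly. RPL22L1 had 79.5 and 259.8 FPKM in old skin, against 78.5 and 442 FPKM in young skin. RPL22, known for a role in T cell development in mice, had 35.4 and 120.5 FPKM in old skin, against 19.2 and 167 FPKM in young skin. The -like gene was the more abundant of this pair, at 225% and 216% of RPL22 in old skin, against 408% and 264% in young skin. RPL7L1 was at 12% and 19.6% of RPL7 in old skin, against 16.4% and 18.5% in young skin.

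Between the table numbers, in contrast to the ages, most of the family passed the test. In a limma fit with age and number as terms, 41 of the 54 genes were higher in the libraries numbered 2 at an adjusted p of 0.05, beside 13.9% of all loci, and 0 were lower, beside 29.1% of all loci. They comprised 23 of 32 large subunit genes and 18 of 22 small subunit genes. The median gene was 3.10-fold higher in old 2 than in old 1 and 5.48-fold higher in young 2 than in young 1, and 53 of 54 genes were higher in number 2 at both ages. The share of all loci higher at both ages is not given, and their median log2 ratio was -0.34 in old and -0.21 in young skin. The number is a property of the tables whose meaning the labels do not give, the fit has 1 residual degree of freedom, and without a filter on low values it called 0 of these genes. Under median-of-ratios scaling, which raises the median of all loci in this contrast by 0.31 on the log2 scale, it called 51 of the 54 higher, beside 20.7% of all loci. Over all loci the fit called 1767 higher and 3706 lower in number 2, against 2618 higher and 2371 lower under that scaling and 676 higher and 6368 lower after the rescaling described next. Rescaling without the loci of small structural RNA and of the mitochondrial genome, which lowers the median of all loci in this contrast by 0.54 to -0.81, left 48 of 54 genes higher in number 2 at both ages. Here too the share of all loci is not given.

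**Figure D4:**
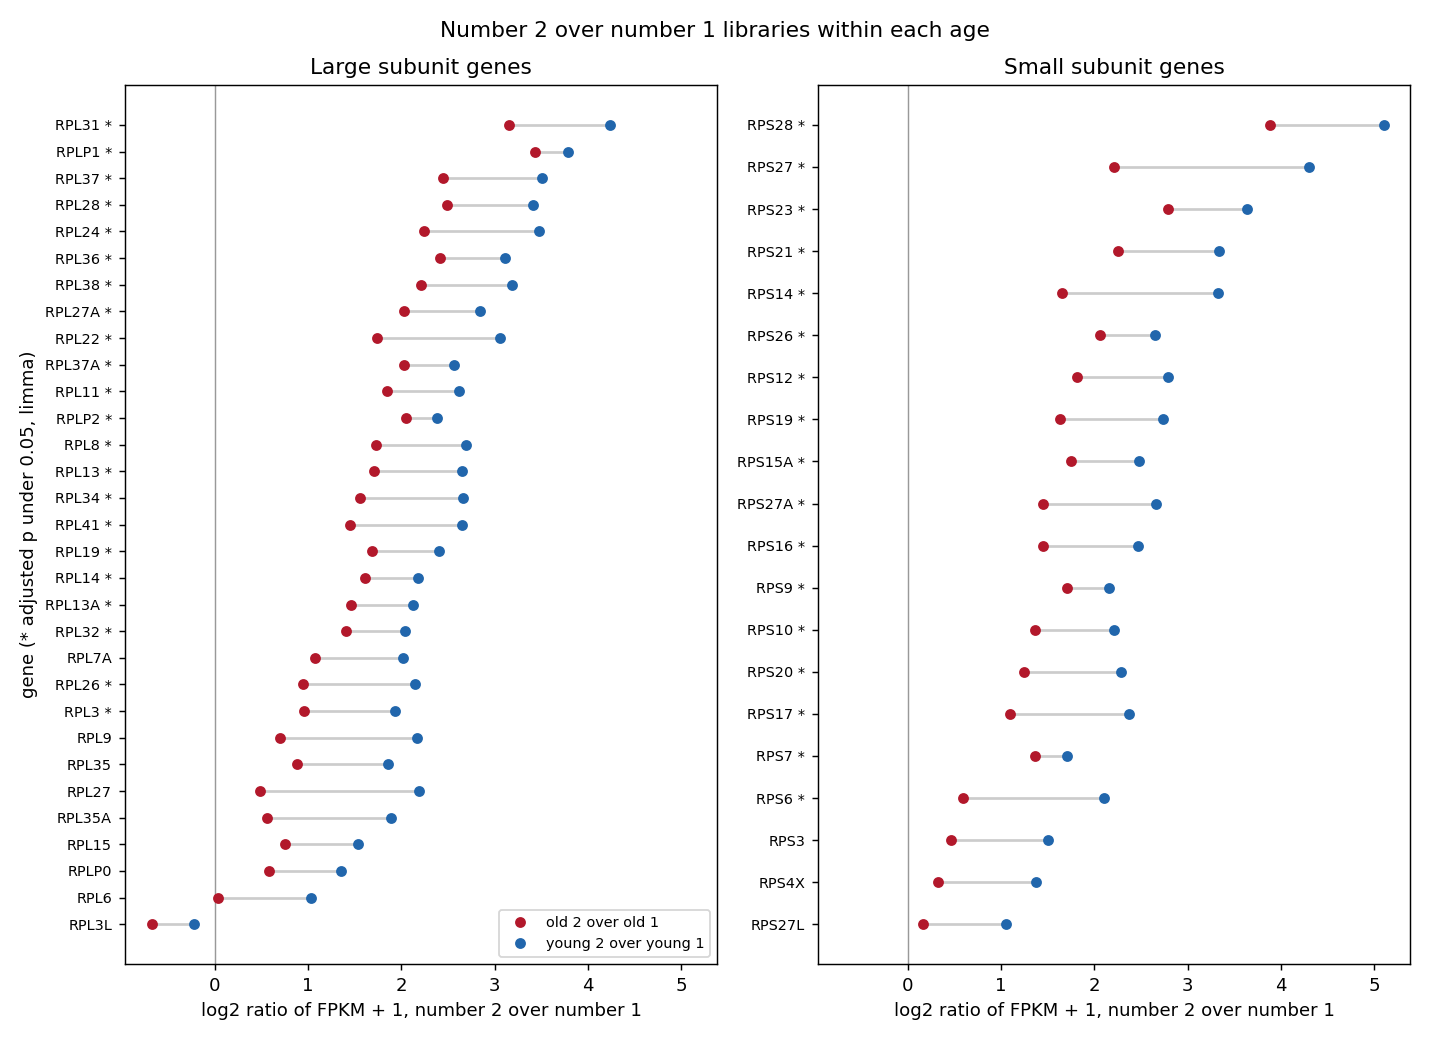
Log2 ratio of FPKM + 1 of the libraries numbered 2 over those numbered 1, within old skin (red) and within young skin (blue), for tested large subunit genes (left) and small subunit genes (right), with an asterisk where limma gave an adjusted p under 0.05. RPS28 and RPL31 lie at the top of their subunits and RPL3L is the one gene left of 0 at both ages.

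RPS28 showed the widest difference, at 14.8-fold in old skin and 34.5-fold in young skin (log2 difference 4.49 ± 0.60, SE, limma adjusted p = 0.00189). RPL31, with 164 and 1467 FPKM in old skin, against 97.7 and 1857 FPKM in young skin, differed by 3.70 ± 0.53 on the log2 scale (SE, limma adjusted p = 0.00227). RPLP1 differed by 3.61 ± 0.33 (SE, limma adjusted p = 0.000519). At the low end, RPL6 differed by 0.54 ± 0.48 (SE, limma adjusted p = 0.389), RPS27L by 0.61 ± 0.33 (SE, limma adjusted p = 0.164) and RPL3L by -0.45 ± 0.31 (SE, limma adjusted p = 0.266). The 13 genes not called also included RPL7A, RPL9, RPL15, RPL27, RPL35, RPL35A, RPLP0, RPS3 and RPS4X.

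Because these differences were unequal, the rank order of the family differed by number more than by age, as did that of all loci. Spearman's rho of the 54 levels was 0.97 between old 1 and young 1 and 0.98 between old 2 and young 2, but 0.85 between old 2 and old 1 and 0.84 between young 2 and young 1. Over all loci tested rho was 0.93 in number 1 and 0.90 in number 2 between the ages. Between the numbers it was 0.63 in old and 0.66 in young skin, so the family kept its order better than all loci did. These are descriptions over genes of shared libraries, with no test. RPL31 and RPS23 illustrate the change of order. RPS23, a protein of the decoding centre, had 184 and 1278 FPKM in old skin, against 142 and 1773 FPKM in young skin. In number 1 RPL31 lay below the family's median at both ages, by 0.24 in old and 0.33 in young skin on the log2 scale, and in number 2 it lay 1.54 above it in old and 1.45 in young skin. The unequal number differences were alike in the ages, with a rho of 0.89 between the old and the young ratios, against 0.80 over all loci.

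The naming rule leaves out 21 further ribosomal protein loci, of which 7 are joined with a neighbouring gene. The other 14 carry no symbol as their name and were identified by a RefSeq gene number in their description. All 21 were examined separately. The joined loci had a median log2 old over young ratio of 0.60 in number 1 and -0.46 in number 2, and all 7 had the opposite signs. The other loci had medians of 0.55 and -0.45, and 13 of the 14 had the opposite signs. RPS29 had 1570.4 and 4998 FPKM in old skin, against 825 and 7338 FPKM in young skin, a higher mean than any of the 54 genes. RPL29 had 214 and 249.7 FPKM in old skin, against 102 and 548 FPKM in young skin. RPL10, among the last proteins to join the large subunit, was the exception, with 301 and 434 FPKM in old skin, against 296 and 423 FPKM in young skin. It was nearly level between the ages in both numbers. No locus of these lists changed with age in limma. Between the numbers, limma called 5 of the 7 joined loci and 6 of the 14 others higher in number 2, beside 13.9% of all loci. The median log2 difference was 1.69 for the joined loci and 1.29 for the others, against 2.05 for the 54 genes. The locus joining RPL21 with RASL11A was called lower in number 2 (log2 difference -1.39 ± 0.37, SE, limma adjusted p = 0.0199), which no tested gene of the family was in the same fit.

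**Figure D5:**
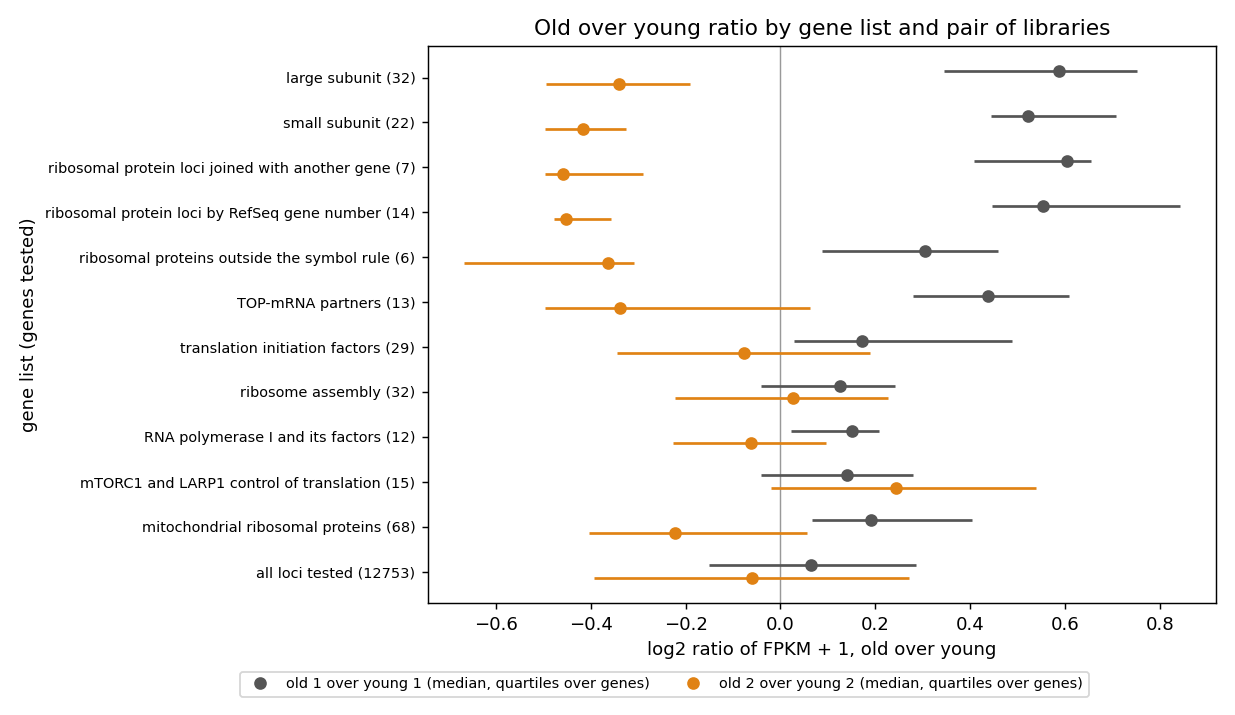
Median log2 ratio of FPKM + 1 of old over young skin, with quartiles over genes, for ribosomal protein genes and other lists of the translation apparatus, in number 1 (grey) and number 2 (orange). The cytosolic ribosomal protein lists lie at 0.52 to 0.60 in number 1, apart from the genes outside the symbol rule at 0.30, and the median of all loci tested lies at 0.07.

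Genes known to share the TOP tract had medians of the same signs as the family. The 13 TOP-mRNA partners tested had a median log2 ratio of 0.44 in number 1 and -0.34 in number 2, and 12 of 13 were higher in old 1 and 9 of 13 lower in old 2. EEF1A1, the elongation factor that brings aminoacyl-tRNA, had 2859 and 1829 FPKM in old skin, against 2109.5 and 2679 FPKM in young skin. TPT1, which encodes translationally controlled tumor protein, had 1059.6 and 2277 FPKM in old skin, against 619.5 and 2916 FPKM in young skin. EEF2, the translocation factor, was higher in old skin in both numbers, with 254 and 316 FPKM in old skin, against 227 and 245 FPKM in young skin. Between the numbers 1 of the 13 was called higher by limma, EEF1B2, and 0 lower, beside 13.9% higher and 29.1% lower of all loci. Their median log2 difference of 0.69 between numbers compares with 2.05 for the ribosomal protein genes.

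A further 6 genes that the names miss, among them the fusion gene FAU and paralogs, had medians of 0.30 in number 1 and -0.36 in number 2, and all 6 had the opposite signs. FAU had 851 and 1836 FPKM in old skin, against 510.0 and 2392 FPKM in young skin. RPL36AL had 15.8 and 145 FPKM in old skin, against 15.1 and 279.7 FPKM in young skin. It was nearly level between the ages in number 1 and lower in old 2 than in young 2.

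The machinery that makes and regulates ribosomes showed smaller medians. Ribosome assembly factors, 32 tested, had medians of 0.13 and 0.03, with 22 higher in old 1 and 15 lower in old 2. NOP10, a component of the pseudouridylation complexes, had 35.7 and 174 FPKM in old skin, against 27.7 and 181 FPKM in young skin. RNA polymerase I and its factors, 12 tested, had medians of 0.15 and -0.06. UBTF, which marks active ribosomal DNA, had 9.88 and 19.0 FPKM in old skin, against 8.47 and 21.2 FPKM in young skin. Translation initiation factors, 29 tested, had medians of 0.17 and -0.08, with EIF1 at 167 and 199.9 FPKM in old skin, against 133 and 147 FPKM in young skin. Genes of mTORC1 and LARP1 control, 15 tested, had medians of 0.14 and 0.24, with 11 of 15 higher in old 2. RPS6KB2, a kinase of RPS6, had 15.3 and 38.8 FPKM in old skin, against 11.5 and 32.1 FPKM in young skin. Limma called 0 genes of any of these lists for age.

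Mitochondrial ribosomal proteins, encoded in the nucleus and used inside mitochondria, offer another ribosome for comparison. Of 68 tested genes 54 were higher in old 1 than in young 1 and 46 were lower in old 2 than in young 2, with medians of 0.19 and -0.22. The opposite signs were seen together for 39 of 68, against 50 of 54 cytosolic genes and 31.5% of all loci. Between the numbers limma called 29 of the 68 higher in number 2 and 1 lower, beside 13.9% higher and 29.1% lower of all loci, with a median log2 difference of 0.81. MRPS21 had 37.7 and 63.9 FPKM in old skin, against 31.4 and 71.5 FPKM in young skin. MRPL51 had 25.7 and 62.6 FPKM in old skin, against 21.7 and 84.9 FPKM in young skin. No mitochondrial ribosomal protein gene changed with age in limma. Differences between the medians of lists were not tested.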

How the data were processed

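Ribosomal RNA was removed with Ribo-Zero Gold from total RNA with an integrity number above 7.5, and both ends of fragments were read over 150 bases on an Illumina instrument, per the labels' protocols. TopHat2, Bowtie2, FastQC and cutadapt appear, without versions, in the submitters' processing notes. The authors deposited FPKM values per locus. The sources used here do not give genome build, annotation, locus lengths or the quantifying tool, so no coordinates are printed, and depth is unknown.

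Python 3.11.15 with pandas 2.3.3 read the 4 tables. Symbols came from the tables, and for 1442 further loci from RefSeq (H.glaber_assembly_v1.0). limma 3.58.1 in R 4.3.3, tested on simulated data, was run on log2(FPKM + 1) where the 4 libraries averaged 1 FPKM or more (12753 loci), with a trend, two-sided, and Benjamini-Hochberg adjustment at 0.05 over all loci. Age was the single term. The number contrast came from a fit with age and number. This scale understates changes of low genes. Ratios within a number have no test. Other pseudocounts, filters, scalings and libraries left out were tried.

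Named genes were the 3 highest and 3 lowest of each subunit, paralog pairs, the 4 largest and smallest ratios per number, genes over 1 from the family's median, and the 2 highest of each other list. Those past the number test are given by count, figure and example. A few genes are counted but not reported by name here, and the plots by gene leave them out. RPL31, RPS23, RPL22, RPL10, RPL29, RPS29, RPL36AL, RPL21, EEF2 and DES fall outside this rule, chosen with their values in view. EEF1B2, RPL9, RPL15, RPL35, RPL35A, RPLP0, RPS3 and RPS4X are named for their result in the number test. Members and lists were chosen with earlier results of these data known.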

Additional observations from a re-analysis of the deposited data

Results flagged for a closer look

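The old over young direction of the ribosomal protein genes differed between the table numbers. Of the 54 genes tested, 50 were higher in old 1 than in young 1 and lower in old 2 than in young 2. With 1 library per age and number, the difference between the numbers leaves 0 residual degrees of freedom and was not tested. No group has 4 or more libraries, so single libraries were not screened for outlying values.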

How the results depend on the processing

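No setting tried gave a ribosomal protein gene called for age in limma, with 0 in each. Over all loci, the age comparison called 0 higher and 0 lower in old skin, against 1 higher and 2 lower (0.0235% of loci in all) with the library number as a replicate block. Deviations of libraries with the same number correlated at 0.823, but with 2 pairs and no label the numbers do not show a pairing. With the block RPL3L had an unadjusted p of 0.0346 and an adjusted p of 0.712 in limma. It was the 1 gene of the 54 with an unadjusted limma p under 0.05 in that fit, beside 837 of the 12753 loci tested. Leaving out 1 library gave between 0 and 24 loci higher and between 0 and 32 lower (old 1 left out, 6 and 32; young 1 left out, 24 and 7; young 2 left out, 0 and 2; old 2 left out, 0 and 0), and the lone library is then assumed to vary like the others. The family's median log2 age difference ranged over these fits between -1.18 without young 1 and 1.35 without young 2.

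The number contrast called 1767 loci higher and 3706 lower, against 0 and 0 without a filter, 676 and 6368 after rescaling without small structural RNA and mitochondrial loci, 1758 lower with a mean of at least 5 FPKM, and 2371 lower under median-of-ratios scaling. These scalings move the share of higher calls. The count of 41 ribosomal protein genes higher in number 2 was 0 without a filter and between 34 and 51 under the other settings, and 1 gene, RPL3L, was called lower after the rescaling. That rescaling also gave a family median of -0.18 in number 2, and number differences of -0.13 for RPL6 and -0.017 for RPS27L. The number contrast cannot be fitted without 1 library. The old minus young gap between the subunits of 0.05 ranged between -0.27 and 0.37 when 1 library was left out, with -0.15 without old 1 and -0.27 without young 2. The causes were not tested. Of 182 alternative values for single named genes, 148 kept their direction and side of the threshold.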
